A study of Mus musculus with 9 samples.

Results

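Expression of the IL-6 cytokine family and its Stat3 axis was examined in colon RNA of AOM/DSS mice given IgG Ab or anti-S100a9 Ab and of untreated mice. The set held 10 genes of the 21498 gene symbols in the data. They were taken by symbol: the ligands Il6, Il11, Lif and Osm, the receptor chains Osmr, Il6ra, Il11ra1 and Il6st, the transcription factor Stat3, and its feedback inhibitor Socs3. All 10 were found and all 10 passed the filter on low values, Il6 only through its IgG Ab samples.

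The samples came from male ICR mice, an outbred strain, that were 5 weeks old at the start, and the labels place all of them at the end of week 18. Each group had 3 biological replicates. Control mice received neither AOM/DSS nor antibody. Mice of the groups AOM/DSS + IgG Ab (IgG Ab below) and AOM/DSS + anti-S100a9 Ab (anti-S100a9 Ab below) received AOM, a colon carcinogen, once at 10 mg/kg, and then 3 cycles of DSS in the drinking water, which injures the colon epithelium. The first cycle was 2% DSS for 7 days and the later cycles were 1.5% for 5 days. Every 2 days during the DSS cycles these mice were also injected intravenously with 1.5 mg/kg of IgG, or with the same dose of a rabbit polyclonal Ab against S100a9, an inflammatory protein of myeloid cells. The labels describe the Control tissue as normal mucosa and both AOM/DSS tissues as adenocarcinoma, so tumor tissue and treatment cannot be told apart in a comparison with Control. The study's own text speaks of mucosa for the tissue given anti-S100a9 Ab. On that wording, tumor tissue and antibody cannot be told apart in anti-S100a9 Ab vs IgG Ab either.

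IL-6 family cytokines act through receptor complexes that share the signaling chain gp130, encoded by Il6st. A ligand-specific chain, such as Il6ra, Il11ra1 or Osmr, joins gp130, the JAK kinases attached to the complex phosphorylate Stat3, and Stat3 enters the nucleus and turns on target genes. One of these is Socs3, whose product binds gp130 and the JAK kinases and dampens the signal. In the intestine the pathway is known for epithelial repair after injury and for tumor growth in inflamed colon. The measurements here are transcript levels, so they contain nothing on Stat3 phosphorylation.

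The values were read as FPKM, fragments scaled to transcript length and sequencing depth, although the deposited data do not name the unit. On that reading, levels of different genes can be set side by side. FPKM totals ran from 308377 to 408811 per sample. The absolute number of fragments is not given. Relative depth was taken from the most common ratio to Control replicate 1 among genes above 0 and under 0.1 FPKM in both samples. That ratio was assumed to set a single fragment against a single fragment. On this assumption, the depth of the other samples was between 0.847 and 1.12 times that of Control replicate 1. S100a9 mRNA, whose protein the Ab targets, was at 0.370 to 0.859 FPKM in Control, 63.1 to 267 FPKM with IgG Ab and 5.54 to 11.6 FPKM with anti-S100a9 Ab. Replicates of a group correlated at r = 0.917 to 0.970 over the genes tested, and samples of different groups at 0.839 to 0.972. The anti-S100a9 Ab samples correlated with Control samples at 0.914 to 0.972, and with IgG Ab samples at 0.839 to 0.926. Between IgG Ab and Control samples the range was 0.844 to 0.919. Epithelial markers summed to between 3700 and 5420 FPKM in every sample, while smooth muscle markers reached 518 to 4070 FPKM, so muscle RNA was present in samples labelled mucosa too. In bulk tissue, fewer cells of a type and less RNA per cell cannot be told apart.

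In the comparison of IgG Ab vs Control, 7 of the 10 genes rose and none fell: all 4 ligands, Osmr, Stat3 and Socs3. Across all 15278 genes tested, 8.18% rose and 3.01% fell under the same rule, an adjusted p under 0.05 by limma with Benjamini-Hochberg adjustment. The median log2 difference of the 10 genes was 1.31, against 0.09 over all genes tested. Il6ra, Il11ra1 and Il6st did not pass. Of all genes called in this comparison 73.1% were higher, and 60.0% after quantile normalization. The count was 3 when only the samples of both groups entered the fit, and 4 without Control replicate 2 or without IgG Ab replicate 3, where Il6 was not tested.

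In the comparison of anti-S100a9 Ab vs IgG Ab, 4 of the 10 genes fell, namely Il6, Il11, Lif and Socs3, and none rose. Across all genes tested, 14.4% fell and 6.72% rose. The median log2 difference of the 10 genes was -0.75, against -0.06 over all genes. Of all genes called, 31.9% were higher, and 41.2%, 47.3% and 44.9% after median-of-ratios, equal-total and quantile scaling. The count was 2, Lif and Socs3, without anti-S100a9 Ab replicate 2. The study had named Il6, Il11, Lif and Osm from these same samples, so their directions in both comparisons are not independent evidence. The comparisons share the IgG Ab samples, so a high value in these samples enters both with opposite sign.

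In the comparison of anti-S100a9 Ab vs Control, none of the 10 genes passed the limma test with Benjamini-Hochberg adjustment. Only 0.00655% of all genes rose and 0.00655% fell, that is 1 gene each way. At an unadjusted p under 0.05, 3 of the 10 genes were higher and none lower: Il6st, Osmr and Stat3. The shares of all genes at that threshold were 8.87% higher and 7.1% lower. The median log2 difference was 0.50, against 0.04 over all genes.

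**Figure D1:**
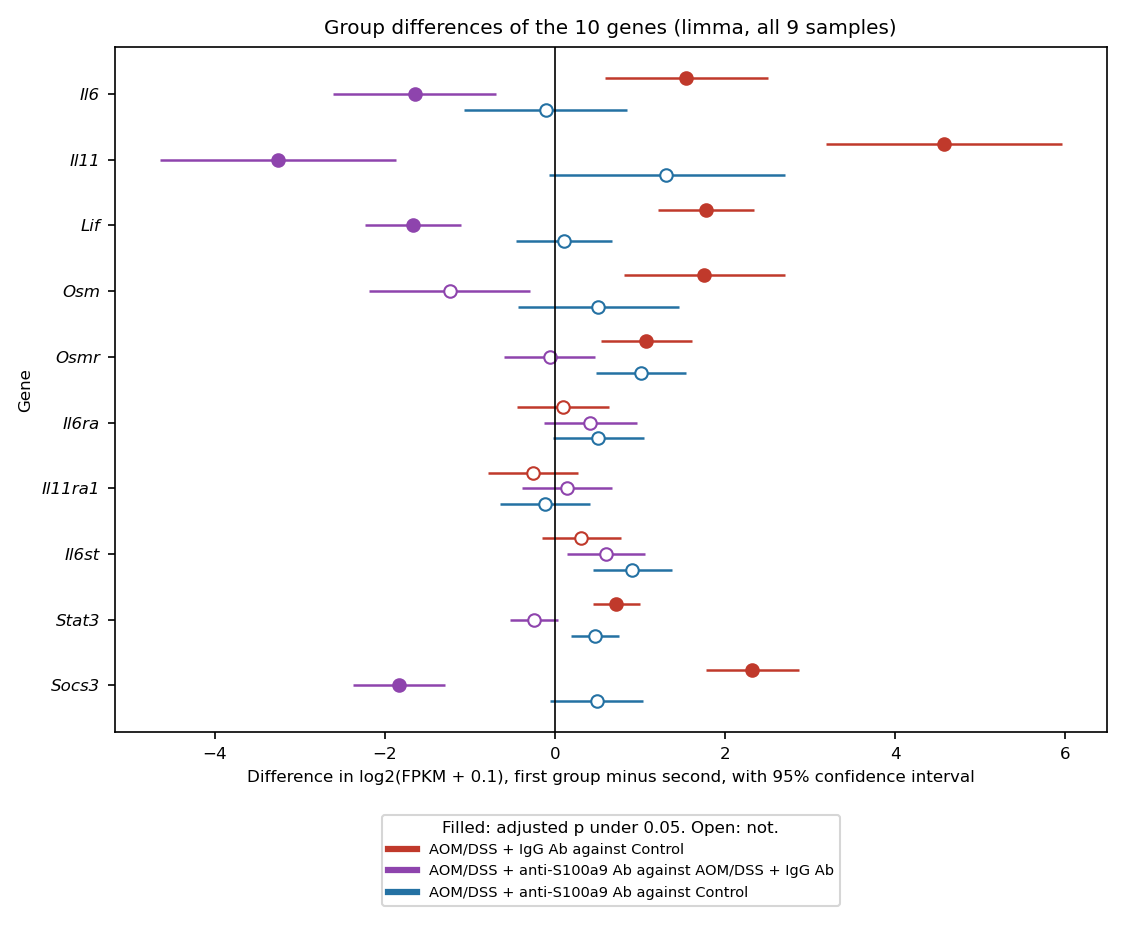
Differences in log2(FPKM + 0.1) between groups for each of the 10 genes (first group minus second, x axis), with 95% confidence intervals from limma on all 9 samples; filled points have an adjusted p under 0.05. The ligands and Socs3 lie to the right in IgG Ab vs Control and to the left in anti-S100a9 Ab vs IgG Ab, while Il6ra and Il11ra1 have intervals that include 0 in all 3 comparisons.

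Promoter sequences were matched for 9 of the 10 genes, from 250 bases before to 50 after each start site (RefSeq, GRCm38.p6). Osm was not matched. Windows of the 3 matched ligand genes and of Socs3 are shown because these are the genes whose mRNA moved in both comparisons with the IgG Ab samples. In Socs3 the capitals mark TTCNNNGAA, the core of a STAT binding motif. In the ligand genes they mark TGANTCA, the core of an AP-1 binding motif, which was chosen after the sequences were seen. Both patterns read the same on either strand, and no matches of the patterns overlapped in the windows of the 9 genes. Il11 has 2 start sites in the table, and the window of the downstream one is shown.
Il6, chr5:30012864-30013163 (+): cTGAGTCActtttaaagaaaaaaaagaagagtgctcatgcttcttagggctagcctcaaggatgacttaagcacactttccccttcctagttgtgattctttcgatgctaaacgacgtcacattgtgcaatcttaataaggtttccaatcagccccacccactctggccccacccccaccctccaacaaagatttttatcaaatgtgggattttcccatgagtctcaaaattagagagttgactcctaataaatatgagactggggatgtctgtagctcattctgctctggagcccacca
Il11, chr7:4778092-4778391 (-): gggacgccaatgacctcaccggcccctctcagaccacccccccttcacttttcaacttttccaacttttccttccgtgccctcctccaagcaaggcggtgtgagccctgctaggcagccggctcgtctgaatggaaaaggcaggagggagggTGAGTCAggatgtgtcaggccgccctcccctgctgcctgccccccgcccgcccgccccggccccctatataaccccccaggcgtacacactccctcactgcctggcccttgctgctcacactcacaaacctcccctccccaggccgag
Lif, chr11:4257318-4257617 (+): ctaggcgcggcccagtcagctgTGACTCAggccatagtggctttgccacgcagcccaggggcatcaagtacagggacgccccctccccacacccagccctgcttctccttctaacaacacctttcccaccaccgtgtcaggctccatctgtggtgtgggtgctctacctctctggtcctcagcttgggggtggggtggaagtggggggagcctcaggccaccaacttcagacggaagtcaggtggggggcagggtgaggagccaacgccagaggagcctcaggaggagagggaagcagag
Socs3, chr11:117969317-117969616 (-): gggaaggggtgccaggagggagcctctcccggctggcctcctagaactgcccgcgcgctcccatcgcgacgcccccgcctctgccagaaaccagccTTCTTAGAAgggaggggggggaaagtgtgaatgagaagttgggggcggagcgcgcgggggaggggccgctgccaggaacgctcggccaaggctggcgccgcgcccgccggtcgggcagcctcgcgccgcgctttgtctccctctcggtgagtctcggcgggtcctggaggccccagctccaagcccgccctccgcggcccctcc

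The 9 matched genes had 11 windows, as Il11 and Il11ra1 have 2 each. TTCNNNGAA occurred in 1 of the 11, that of Socs3, where the match TTCTTAGAA lay 154 to 146 bases upstream of the RefSeq start site. The GENCODE span of this minus-strand gene reaches to 117970047, so the whole window lies inside it, and the annotations differ on the start. Of 32817 promoter windows of the same length, 8.29% held this pattern. TGANTCA occurred in 4 of the 11 windows and in 7.81% of all windows, a description only, since this pattern was picked from these sequences. The upstream window of Il11 held no match. The match in Il6 lay 249 to 243 bases upstream, that in Il11 98 to 92 bases upstream, and that in Lif 228 to 222 bases upstream. The fourth was in Osmr, just after its RefSeq start site, and that window also lies inside the GENCODE span of its gene. A match of letters is not evidence that a factor was bound in these samples.

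Il11 (chr7:4772373-4782859, minus strand) encodes the gp130 cytokine of stromal cells that signals through Il11ra1. Its level was 0.154, 0.0683 and 0.132 FPKM in the Control samples, 6.45, 1.95 and 9.84 FPKM in the IgG Ab samples, and 0.895, 0.403 and 0.205 FPKM in the anti-S100a9 Ab samples. The 3 groups did not overlap: every IgG Ab sample was above every anti-S100a9 Ab sample, and these were above every Control sample. The rise with AOM/DSS + IgG Ab was 4.57 ± 0.61 (SE, n = 3 per group) on the log2(FPKM + 0.1) scale (limma, adjusted p = 0.0033), which understates ratios of low levels: the ratio of group means was 51.6. It passed in all 20 alternative fits, with estimates from 4.09 to 5.23 when 1 sample was left out. Against IgG Ab, Il11 fell by 3.26 ± 0.61 on the same scale with anti-S100a9 Ab (limma, adjusted p = 0.013), and this call was lost only without anti-S100a9 Ab replicate 2 (adjusted p = 0.053). With anti-S100a9 Ab against Control the difference was 1.31 (95% confidence interval -0.07 to 2.7, limma, adjusted p = 0.33).

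Lif (chr11:4257557-4272514, plus strand) encodes leukemia inhibitory factor, which signals through gp130 and Lifr. Control samples had 0.763, 0.625 and 0.612 FPKM, IgG Ab samples 3.16, 2.06 and 2.43 FPKM, and anti-S100a9 Ab samples 0.885, 0.654 and 0.643 FPKM. The IgG Ab samples stood clear of both other groups, which overlapped each other. Lif rose by 1.77 ± 0.25 with AOM/DSS + IgG Ab vs Control (limma, adjusted p = 0.0042) and fell by 1.67 ± 0.25 with anti-S100a9 Ab vs IgG Ab (limma, adjusted p = 0.0066), in log2 units, and both calls held in all 20 alternative fits. The anti-S100a9 Ab samples differed from Control by 0.10 (95% confidence interval -0.46 to 0.67, limma, adjusted p = 0.85).

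Osm, which encodes oncostatin M, a cytokine of myeloid cells, lies 16531 bases from Lif on the same strand (chr11:4236420-4241026). Its level was 0.504, 0.147 and 0.448 FPKM in Control, 0.970, 1.29 and 2.01 FPKM with IgG Ab, and 0.633, 0.363 and 0.596 FPKM with anti-S100a9 Ab. The IgG Ab samples were again above all other samples, and the other groups overlapped. Osm rose by 1.75 ± 0.42 in IgG Ab vs Control (limma, adjusted p = 0.031), a call that passed in 13 of 19 alternative fits and was lost without Control replicate 1 or 2, IgG Ab replicate 3, or anti-S100a9 Ab replicate 1 or 3. Its difference of -1.24 ± 0.42 in anti-S100a9 Ab vs IgG Ab did not pass (limma, adjusted p = 0.063, 95% confidence interval -2.19 to -0.29). That difference passed in only 2 of 19 alternative fits, without Control replicate 2 (limma, adjusted p = 0.045) and with a pseudocount of 1 (limma, adjusted p = 0.035).

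Il6 (chr5:30013114-30019981, plus strand), the founding cytokine of the family, was the lowest of the 10 genes in all 3 groups. It was at 0.0451, 0.0171 and 0.0316 FPKM in Control, 0.110, 0.573 and 0.293 FPKM with IgG Ab, and 0, 0.0553 and 0.0144 FPKM with anti-S100a9 Ab. Only the IgG Ab samples reached the 0.1 FPKM of the filter. Il6 was thus tested only because of the group where it was high, and its calls carry that selection. After correction for relative depth, the Control values were 3.11, 1.00 and 1.90 times the smallest value above 0, the anti-S100a9 Ab values above 0 were 4.17 and 1.02 times it, and the IgG Ab values were 6.81, 41.5 and 18.5 times it. The Control and anti-S100a9 Ab values thus sat near small whole multiples of this value. If it is a single fragment, the Control levels rest on 1 to 3 fragments, with a large counting error. Il6 rose by 1.54 ± 0.42 in IgG Ab vs Control (limma, adjusted p = 0.049) and fell by 1.65 ± 0.42 in anti-S100a9 Ab vs IgG Ab (limma, adjusted p = 0.029), in log2 units. The size of the rise rested on the pseudocount, at 0.35 with 1 FPKM and 2.80 with 0.01 FPKM. The rise passed in 5 of 15 alternative fits and in none of the 6 without 1 sample in which Il6 was tested. The fall passed in 10 of 15, and was lost without anti-S100a9 Ab replicate 1, 2 or 3.

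**Figure D2:**
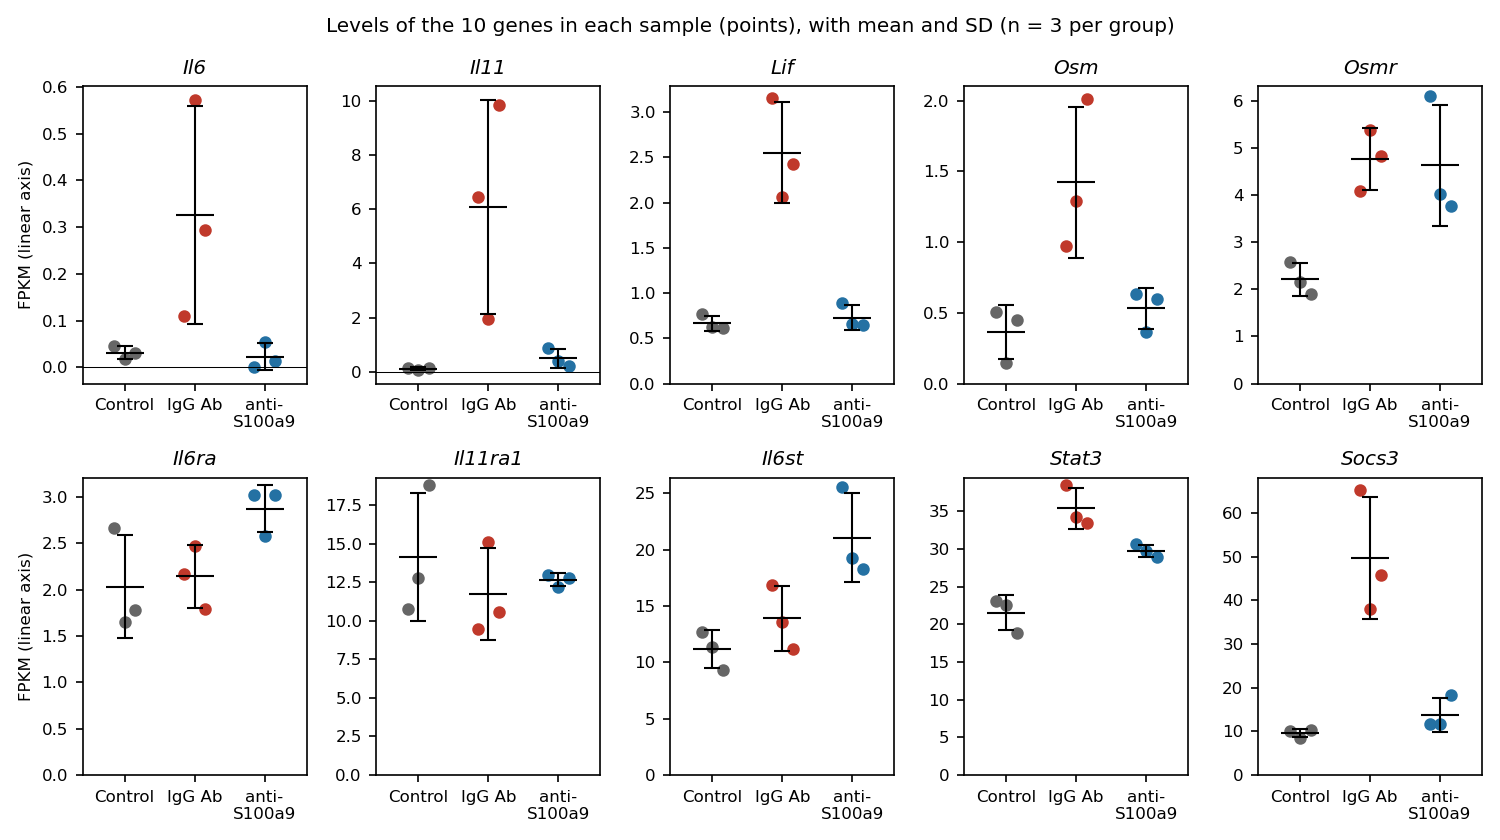
FPKM of the 10 genes in each sample (points, linear axes with a separate scale per gene), with the mean and SD of each group (n = 3). The IgG Ab samples are above all others for the 4 ligands, Stat3 and Socs3, while for Osmr the 3 samples of each AOM/DSS group, at 3.76 to 6.10 FPKM, are above all Control samples.

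The 4 ligand genes together reached 0.857 to 1.47 FPKM in the Control samples, 5.87 to 14.6 FPKM in the IgG Ab samples and 1.46 to 2.41 FPKM in the anti-S100a9 Ab samples. The makeup of this sum differed between groups as well as its size. Lif made up 50.0% to 72.9% of it in Control, where Il11 gave 7.97% to 10.8%. In the IgG Ab samples Il11 gave 60.4%, 33.3% and 67.6%, and was the largest of the 4 in replicates 1 and 3, with Lif slightly ahead in replicate 2 at 35.1%. In the anti-S100a9 Ab samples Il11 gave 37.1%, 27.3% and 14.0%, so in replicates 2 and 3 Lif was again the largest, at 44.4% and 44.1%. Il6 gave at most 9.76% of the sum in any sample.

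**Figure D3:**
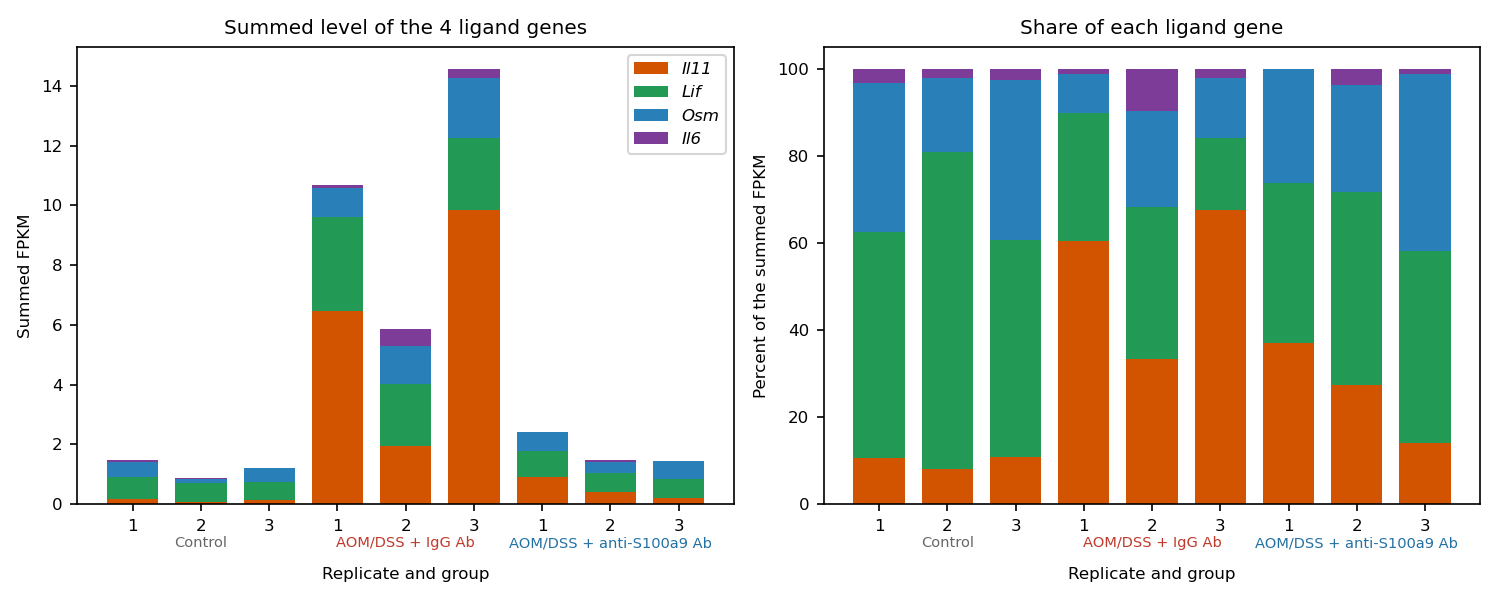
Stacked FPKM of the 4 ligand genes in each sample (left) and the share of each gene in that sum (right), by replicate and group. The sum is 5.87 to 14.6 FPKM in the IgG Ab samples and at most 2.41 FPKM elsewhere, and Il11 takes its largest shares in IgG Ab replicates 1 and 3.

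Of the 4 receptor chain genes, 1 rose in IgG Ab vs Control, and none passed in the other comparisons. Osmr (chr15:6813577-6874969, minus strand), the oncostatin M receptor chain, was at 2.58, 2.15 and 1.90 FPKM in Control, 4.08, 5.38 and 4.82 FPKM with IgG Ab, and 6.10, 4.03 and 3.76 FPKM with anti-S100a9 Ab. Every AOM/DSS sample was above every Control sample, and the AOM/DSS groups overlapped. It rose by 1.07 ± 0.23 in IgG Ab vs Control (limma, adjusted p = 0.023), in 16 of 20 alternative fits, with the call lost without Control replicate 2 or 3 or IgG Ab replicate 3. The anti-S100a9 Ab samples differed from IgG Ab by -0.06 (95% confidence interval -0.6 to 0.47, limma, adjusted p = 0.86). They differed from Control by 1.01 ± 0.23 (unadjusted p = 0.0020, limma adjusted p = 0.30), and Osmr was the only one of the 10 genes past the study's own thresholds in that comparison, a fold of over 2 with p under 0.05 before adjustment, against 2.28% of all genes higher and 0.864% lower by this rule.

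Il6st (chr13:112464070-112510086, plus strand), which encodes gp130 itself, was at 12.7, 11.4 and 9.35 FPKM in Control, 16.9, 13.6 and 11.2 FPKM with IgG Ab, and 25.6, 19.3 and 18.3 FPKM with anti-S100a9 Ab. The anti-S100a9 Ab samples were the highest and overlapped neither other group, whereas Control and IgG Ab overlapped. In log2 units, anti-S100a9 Ab differed from IgG Ab by 0.60 ± 0.20 (limma, adjusted p = 0.064, 95% confidence interval 0.14 to 1.06). It passed in 3 of 20 alternative fits, among them median-of-ratios scaling (limma, adjusted p = 0.037) and quantile normalization (limma, adjusted p = 0.030). It passed in none of the 9 fits without 1 sample. The difference from Control was 0.91 ± 0.20 (unadjusted p = 0.0016, limma adjusted p = 0.30), and that of IgG Ab vs Control 0.31 (95% confidence interval -0.15 to 0.77).

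Il6ra (chr3:89864059-89913196, minus strand), the IL-6 binding chain, was at 2.67, 1.65 and 1.78 FPKM in Control, 2.17, 2.47 and 1.79 FPKM with IgG Ab, and 3.02, 2.58 and 3.02 FPKM with anti-S100a9 Ab. Only the anti-S100a9 Ab and IgG Ab samples did not overlap, and no comparison passed. Il11ra1, the IL-11 binding chain, was at 10.8, 12.8 and 18.8 FPKM in Control, 9.46, 15.1 and 10.6 FPKM with IgG Ab, and 13.0, 12.2 and 12.8 FPKM with anti-S100a9 Ab. All 3 groups overlapped. The 95% confidence intervals of the log2 differences in IgG Ab vs Control were -0.45 to 0.63 for Il6ra and -0.79 to 0.27 for Il11ra1. Changes within these bounds are thus not excluded. The Il11ra1 value is uncertain: its annotated span (chr4:41699989-41769474) overlaps 6 other protein-coding genes, and its near-identical copy Il11ra2 was listed at 0 in all samples.

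Stat3 (chr11:100885098-100939540, minus strand) was at 23.1, 22.6 and 18.9 FPKM in Control, 38.5, 34.2 and 33.5 FPKM with IgG Ab, and 30.6, 29.7 and 28.9 FPKM with anti-S100a9 Ab. The groups did not overlap, with anti-S100a9 Ab between the others. Stat3 rose by 0.72 ± 0.12 log2 units in IgG Ab vs Control (limma, adjusted p = 0.0096), and kept this call in 19 of 20 alternative fits, with an adjusted p of 0.051 when only the samples of both groups were fitted. The anti-S100a9 Ab samples differed from IgG Ab by -0.25 (95% confidence interval -0.53 to 0.03, limma, adjusted p = 0.16) and from Control by 0.47 ± 0.12 (unadjusted p = 0.0044, limma adjusted p = 0.30). Stat3 overlaps Stat5a on the other strand, and whether counting used strand is not given. Stat5a itself did not pass in any comparison, with log2 differences of 0.02, -0.10 and -0.09.

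Socs3 (chr11:117966079-117970047, minus strand), whose RefSeq promoter window holds the STAT pattern shown above, was at 9.99, 8.57 and 10.3 FPKM in Control, 65.3, 38.0 and 45.8 FPKM with IgG Ab, and 11.6, 11.6 and 18.3 FPKM with anti-S100a9 Ab. The lowest IgG Ab sample was above the highest sample of any other group, and all anti-S100a9 Ab samples were above all Control samples. Socs3 rose by 2.32 ± 0.24 in IgG Ab vs Control (limma, adjusted p = 0.0012) and fell by 1.84 ± 0.24 in anti-S100a9 Ab vs IgG Ab (limma, adjusted p = 0.0045), in log2 units. Both calls held in all 20 alternative fits. Against Control the anti-S100a9 Ab samples differed by 0.49 (95% confidence interval -0.06 to 1.03, limma, adjusted p = 0.34).

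Counting groups whose samples did not overlap, 7 of the 10 genes were higher in IgG Ab than in Control, against 20.7% of all genes, and none lower, against 10.2%. In anti-S100a9 Ab vs IgG Ab, 6 were lower, against 28.5%, and 2 were higher (Il6ra and Il6st), against 18.5%. In anti-S100a9 Ab vs Control 5 were higher, against 17.3%, and none lower, against 13.7%. The 5 were Il11, Osmr, Il6st, Stat3 and Socs3.

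By mean level, Stat3 stood first in Control at 21.6 FPKM, followed by Il11ra1, Il6st and Socs3, whose neighbouring ranges overlapped, and then Osmr and Il6ra near 2 FPKM. The ligands Lif, Osm, Il11 and Il6 came last. In the IgG Ab samples Socs3 moved to the top at a mean of 49.7 FPKM, although its range overlapped that of Stat3 at 33.5 to 38.5 FPKM, and Il11 moved from the ninth place to the fifth, where it overlapped Osmr. In the anti-S100a9 Ab samples the order was Stat3, Il6st, Socs3, Il11ra1, Osmr, Il6ra, Lif, Osm, Il11 and Il6, where the neighbours Socs3 and Il11ra1 overlapped, as did Osm and Il11. The range of Il11 there, 0.205 to 0.895 FPKM, also took in that of Lif.

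The other genes of the pathway were taken from lists of ligands, receptors, kinases and STATs, inhibitors, receptor shedding enzymes and STAT3 target genes, of which 75 were tested. In IgG Ab vs Control 15 rose (20%, against 8.18% of all genes) and 1 fell, with 59 not passing. In anti-S100a9 Ab vs IgG Ab 2 rose and 14 fell, and the share that fell, 18.7%, was near the 14.4% of all genes. None passed in anti-S100a9 Ab vs Control by limma with Benjamini-Hochberg adjustment. At an unadjusted p under 0.05, 13 were higher and 2 lower there, against 8.87% and 7.1% of all genes. The first count, 16 in all, was 8 without Control replicate 1 and 7 without Control replicate 2. The second, also 16, was 9, 6 and 9 without anti-S100a9 Ab replicates 1, 2 and 3.

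Among the other ligand genes, Ctf1, which encodes cardiotrophin 1, fell by 1.63 in anti-S100a9 Ab vs IgG Ab (limma, adjusted p = 0.013), with 9.57, 5.41 and 4.78 FPKM under IgG Ab and 1.91, 1.86 and 2.15 FPKM under anti-S100a9 Ab. Clcf1 did not pass, at 1.49 to 7.59 FPKM in Control and 2.63 to 4.45 FPKM with IgG Ab. Ctf2 was listed at 0 in all samples.

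None of the 3 other receptor genes tested passed in IgG Ab vs Control or in anti-S100a9 Ab vs IgG Ab. Lifr, which pairs with gp130 for Lif and Osm, was at 1.82 to 2.21 FPKM in Control, 2.09 to 3.23 FPKM with IgG Ab and 1.98 to 2.51 FPKM with anti-S100a9 Ab. Of 12 kinase and STAT genes, none passed in IgG Ab vs Control, with a median log2 difference of -0.02. Jak1, a kinase that gp130 uses, rose by 0.54 in anti-S100a9 Ab vs IgG Ab (limma, adjusted p = 0.049), a call that passed in 8 of 20 alternative fits. Its level was 25.1, 28.5 and 23.4 FPKM with IgG Ab and 41.2, 31.0 and 40.1 FPKM with anti-S100a9 Ab, without overlap.

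Of 16 other inhibitor genes, 1 rose in IgG Ab vs Control and fell in anti-S100a9 Ab vs IgG Ab: Ptprt, a receptor-type phosphatase named here after its values were seen, with no group mean above 1 FPKM. The other members of the Socs family did not pass in any comparison. Socs1, the closest relative of Socs3, was at 4.59 to 10.0 FPKM in Control, 4.77 to 15.6 FPKM with IgG Ab and 4.20 to 10.1 FPKM with anti-S100a9 Ab. Adam10, a protease that can shed receptors from the cell surface, rose by 0.83 in IgG Ab vs Control (limma, adjusted p = 0.038) and passed in 9 of 20 alternative fits, while Adam17 was at 0.06 (limma, adjusted p = 0.87).

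Among 36 tested STAT3 target genes, 12 (33.3%) rose and 1 fell in IgG Ab vs Control, with a median log2 difference of 0.67. In anti-S100a9 Ab vs IgG Ab, 1 rose and 11 fell (30.6%), with a median of -0.69. The shares of all genes were 8.18% and 3.01% in the first comparison and 6.72% and 14.4% in the second. The study had named Saa3, Lcn2 and Myc from these same samples, so their directions are not independent evidence. The largest changes were in genes of antimicrobial and acute-phase proteins. Reg3b and Reg3g, which encode antibacterial lectins of the gut epithelium, rose by 8.43 (limma, adjusted p = 0.014) and 6.02 (limma, adjusted p = 0.0037) in IgG Ab vs Control, in log2 units.

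Reg3b was at 0.0505, 0.119 and 0.402 FPKM in Control, 45.0, 77.4 and 193 FPKM with IgG Ab, and 3.85, 87.4 and 0.293 FPKM with anti-S100a9 Ab. Anti-S100a9 Ab replicate 2 thus lay inside the IgG Ab range, and the difference between these groups did not pass for Reg3b (-4.09, limma, adjusted p = 0.098) or Reg3g (-2.53, limma, adjusted p = 0.057). Saa3, an acute-phase protein gene, rose by 6.58 (limma, adjusted p = 0.0018) in IgG Ab vs Control and fell by 5.82 (limma, adjusted p = 0.0044) in anti-S100a9 Ab vs IgG Ab. Lcn2, whose product binds bacterial iron carriers, rose by 6.04 (limma, adjusted p = 0.00025) and fell by 4.90 (limma, adjusted p = 0.00098). Its levels were 0.933 to 2.29 FPKM in Control, 77.7 to 176 FPKM with IgG Ab and 2.53 to 4.30 FPKM with anti-S100a9 Ab. Hp, the haptoglobin gene, fell by 4.73 (limma, adjusted p = 0.012) and Timp1, a metalloproteinase inhibitor gene, by 3.85 (limma, adjusted p = 0.0049) in anti-S100a9 Ab vs IgG Ab.

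The following target genes were named after their values were seen. In IgG Ab vs Control, Timp1, Hp, Lrg1, Steap4, Myc, Bcl3, Il4ra and Bcl2l1 made up the other 8 of the 12 that rose. Mcl1, a survival gene, went the other way, with 179 to 205 FPKM in Control, 106 to 146 FPKM with IgG Ab and 189 to 237 FPKM with anti-S100a9 Ab. It fell by 0.68 in IgG Ab vs Control (limma, adjusted p = 0.038), in 10 of 20 alternative fits, and rose by 0.86 in anti-S100a9 Ab vs IgG Ab (limma, adjusted p = 0.015). Myc, a driver of cell growth, was at 8.59 to 11.8 FPKM in Control, 22.6 to 44.3 FPKM with IgG Ab and 11.4 to 13.3 FPKM with anti-S100a9 Ab. Saa1 did not pass: it was at 1450 to 3320 FPKM in Control and 214 to 1170 FPKM with IgG Ab. Cebpd of this list was not in the data under that symbol, Fga and Fgb were listed at 0, and Fgg was below the filter.

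**Figure D4:**
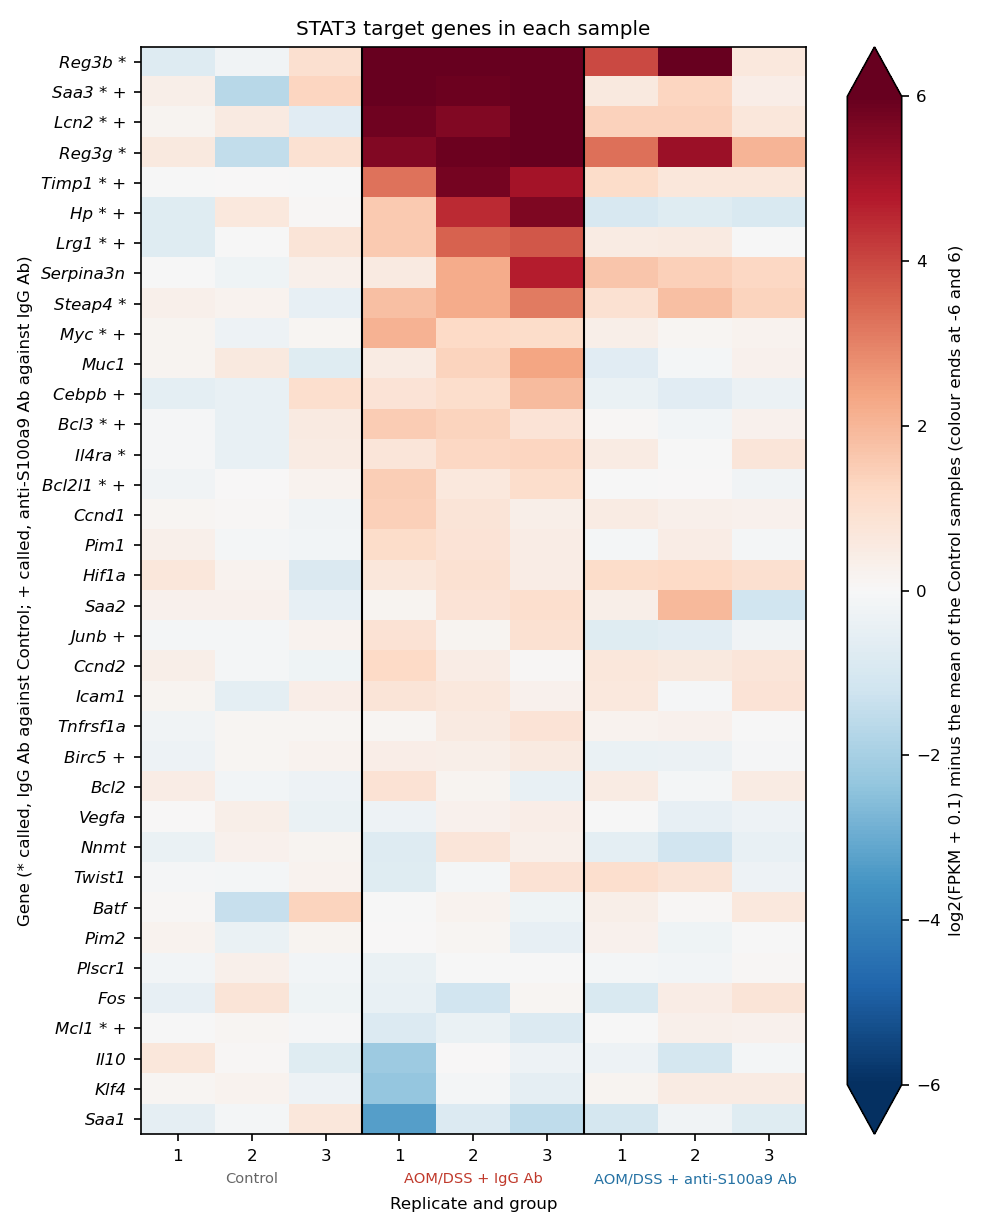
Level of the 36 tested STAT3 target genes in each of the 9 samples, as log2(FPKM + 0.1) minus the mean of the Control samples (colour, ending at -6 and 6), ordered by the difference of IgG Ab vs Control. The IgG Ab columns are red for Reg3b, Saa3, Lcn2 and Reg3g at the top, Mcl1 is pale blue there, and anti-S100a9 Ab replicate 2 keeps the red of Reg3b.

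The genes whose log2 levels followed those of Il11, Osmr and Socs3 most closely over the 9 samples were sought among the 13064 other tested genes with a mean of at least 1 FPKM in at least 1 group. For Il11 they were Aldh1a3 (Pearson r = 0.99), Pmepa1 (r = 0.987) and Cemip (r = 0.986). For Socs3 they were Spp1 (r = 0.992), Mmp9 (r = 0.981) and Myrf (r = 0.981). Spp1 had a mean of 0.299 FPKM in Control, 30.4 FPKM with IgG Ab and 0.787 FPKM with anti-S100a9 Ab. For Osmr they were Ciart (r = 0.961), Heg1 (r = 0.96) and Nt5c1a (r = 0.934), and Heg1 had means of 4.18, 7.88 and 8.32 FPKM in the same order. The study had also named Spp1 and Mmp9 from these samples. These 9 points fall into 3 treatment groups of 3, so the coefficients describe the shared group pattern.

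Markers of some cell types differed between the same groups, and those of others did not. The shares of all genes to read these counts against are 8.18% higher and 3.01% lower in IgG Ab vs Control, and 6.72% higher and 14.4% lower in anti-S100a9 Ab vs IgG Ab. Of 7 fibroblast markers, 4 rose in IgG Ab vs Control and 3 fell in anti-S100a9 Ab vs IgG Ab, and their summed level was 434 to 509 FPKM in Control, 630 to 2120 FPKM with IgG Ab and 577 to 758 FPKM with anti-S100a9 Ab. The 3 that fell were the collagen genes Col1a1, Col1a2 and Col3a1, which also rose and which the study had named from these same samples. Pdgfra only rose, and Dcn, Lum and Thy1 passed in neither comparison. Of 8 neutrophil markers, 4 rose and 3 fell in the same comparisons, among them Cxcr2, which the study had also named. Their sum was 90.2 to 120, 35.5 to 196 and 86.6 to 156 FPKM. Ly6g made up the larger part of it in all samples but IgG Ab replicate 3, where Ly6g was at 95.2 FPKM and Retnlg at 75.6 FPKM. The means of Ly6g, 104, 72.4 and 124 FPKM in the same order, ran opposite to the called markers. Ly6g, Mpo, Ngp and Camp were called in neither comparison. Ngp and Stfa2l1 were listed at 0 in all Control samples. None of 8 macrophage markers passed in any comparison, with sums of 660 to 1510, 663 to 1160 and 1050 to 1300 FPKM.

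Of 6 squamous epithelial markers tested, 4 rose in IgG Ab vs Control and 5 fell in anti-S100a9 Ab vs IgG Ab, with sums of 2.29 to 3.25 FPKM in Control, 9.90 to 50.7 FPKM with IgG Ab and 1.75 to 4.31 FPKM with anti-S100a9 Ab. Of 5 adipocyte markers tested, 4 fell in IgG Ab vs Control, with sums of 46.7 to 147, 9.86 to 39.0 and 19.4 to 35.7 FPKM. Smooth muscle markers summed to 1800 to 2860 FPKM in Control, 518 to 3250 FPKM with IgG Ab and 2250 to 4070 FPKM with anti-S100a9 Ab, and 1 of 6, Myh11, rose in anti-S100a9 Ab vs IgG Ab. Single markers of other lists were called too. Krt18, 1 of 8 epithelial markers, and Sdc1, 1 of 7 B and plasma cell markers, rose in IgG Ab vs Control by 1.19 and 1.18 log2 units (limma, adjusted p = 0.026 and 0.012) and fell in anti-S100a9 Ab vs IgG Ab by 1.42 and 1.28 (limma, adjusted p = 0.013 and 0.0094). Sdc1 had been named by the study from these same samples. Of 4 hepatocyte markers tested, Alb rose by 2.12 (limma, adjusted p = 0.015) and Cyp2e1 fell by 4.57 (limma, adjusted p = 0.015) in IgG Ab vs Control, and Alb fell by 2.36 (limma, adjusted p = 0.011) in anti-S100a9 Ab vs IgG Ab. Cd4, 1 of 6 T cell markers, rose by 2.26 in anti-S100a9 Ab vs IgG Ab (limma, adjusted p = 0.016). None of 5 endothelial markers was called in any comparison. The part of these cells in the levels of the 10 genes was not tested.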

How the data were processed

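RNA from colon tissues was sequenced in 9 samples, 3 per group. Per the labels, the submitters' processing notes name TopHat, Cufflinks, HTSeq and DESeq and the genome build GRCm38, and the authors deposited 1 file per sample with an FPKM value for each of 21544 rows. Use of strand in counting and the annotation are not given in the sources used here. Rows that repeated a symbol (46) were summed, leaving 21498 symbols. Groups were taken from the labels, which do not say that replicate numbers mark a shared cage or day. Replicates were checked, and no pair of samples shared more than 0.00604% of their values above 0.

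Genes were tested if 3 or more samples reached 0.1 FPKM (15278 genes). Their values, as log2(FPKM + 0.1), were fitted in all 9 samples together with limma (version 3.58.1, R version 4.3.3), moderated with an intensity trend, with Benjamini-Hochberg adjustment over all genes tested. A gene was called at an adjusted p under 0.05. Because the files hold no counts, the authors' DESeq test was not repeated, the depth behind each value is unknown, and no counting intervals were computed. Precision comes from the spread between replicates within the 3 groups, pooled over all 9 samples and moderated toward that of other genes of like level. A p-value sets a group difference against this spread.

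Genes named by rule beside the 10 members were, per pathway list, up to 4 called genes with the largest change and a mean of at least 1 FPKM in a group, S100a9, and the 3 genes most correlated with each of Il11, Osmr and Socs3. Further genes of the pathway and marker lists, called or not, were named after their values were seen. One gene that this rule names is not reported here. The members and the lists were chosen with earlier results of these data known. On simulated data for AOM/DSS + IgG Ab vs Control, with 15278 genes of which 200 were changed, 94.5% of those changed by 3 log2 units and 20.5% of those changed by 1 were recovered. The changed genes were drawn only from genes with a mean log2 level above those of Il6, Il11 and Osm. The rates therefore do not cover these low ligand genes. Alternatives covered the call rule, the samples in the fit, a replicate block, the pseudocount, the filter, scaling, the variance model and leaving out each sample. Gene positions are from GENCODE on GRCm38 and promoters from RefSeq. Tables and figures were made with Python 3.11.15, pandas 2.3.3, numpy 2.4.6, scipy 1.17.1 and matplotlib 3.10.9.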

Additional observations from a re-analysis of the deposited data

How the results depend on the processing

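Of 581 alternative values for the 10 genes, 535 kept direction and call, 27 lost a call, 5 gained one and 14 changed sign, all of these 14 in comparisons that were not called. The calls that held in all alternative fits were Il11, Lif and Socs3 in IgG Ab vs Control and Lif and Socs3 in anti-S100a9 Ab vs IgG Ab. With only the samples of both groups, 3 of the 10 genes and 8 of 75 other pathway genes were called in IgG Ab vs Control, with fewer samples to estimate the spread, and 627 of all genes against 1710. Leaving out 1 sample gave 4 to 6 of the 10 genes and 7 to 18 of the 75 in IgG Ab vs Control, and 2 to 5 and 6 to 20 in anti-S100a9 Ab vs IgG Ab. Over all genes it gave 591 (without Control replicate 2) to 2167, and 516 (without anti-S100a9 Ab replicate 2) to 4114 against 3219. By the study's thresholds (p under 0.05 before adjustment, fold over 2), 1 of the 10 genes and 5 of the 75 were called in anti-S100a9 Ab vs Control. All of them were higher, and the shares of all genes by this rule were 2.28% higher and 0.864% lower. Equal totals gave 2093 calls over all genes in anti-S100a9 Ab vs IgG Ab. They moved the median log2 difference of all genes from 0.04 to 0.23 in anti-S100a9 Ab vs Control and from -0.06 to 0.05 in anti-S100a9 Ab vs IgG Ab, and quantile normalization moved it from 0.09 to -0.03 in IgG Ab vs Control. The cause of these differences was not tested. The sign changed for Il6ra in IgG Ab vs Control (-0.0101 after median-of-ratios scaling, -0.0406 after quantile normalization, and -0.0351 to 0.30 with 1 sample left out). It changed for Osmr in anti-S100a9 Ab vs IgG Ab (0.0134 after median-of-ratios scaling, 0.0479 after equal totals, and -0.28 to 0.0655 with 1 sample left out). In anti-S100a9 Ab vs Control it changed for Lif (-0.07 after quantile normalization, -0.0288 to 0.19 with 1 sample left out), Il11ra1 (0.0781 after equal totals, -0.29 to 0.10 with 1 left out) and Il6 (-0.29 to 0.0274 with 1 left out). Il6 was below the filter on low values in the fits without an IgG Ab sample. The labels do not say that replicate numbers mark a shared origin, and the data fell short of pairing every sample: 5 of 9 same-numbered pairs correlated above 0.1 after removal of group means (-0.187 to 0.249), and in 9 of 18 choices a sample's best partner had its own number. With the replicate block, 6 of the 10 genes were called in IgG Ab vs Control (Il6, adjusted p = 0.057), 5 in anti-S100a9 Ab vs IgG Ab (Il6st added, adjusted p = 0.021) and 0 in anti-S100a9 Ab vs Control, and 19, 16 and 0 of the 75. Over all genes the replicate block gave 1703, 3361 and 2 calls in the same order. The few replicates and the unknown depth limit what can be said of genes under 1 FPKM, such as Il6.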

Other observations

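Osm and Lif are neighbours on chromosome 11, so the genes around them were read as well. Of 14 protein-coding genes within 250000 bases on each side, 13 were in the data, Osm and Lif included. Besides this pair, none of these genes was called in IgG Ab vs Control (limma, Benjamini-Hochberg adjusted). Tbc1d10a, which had means of 13.9 FPKM in Control, 19.4 FPKM with IgG Ab and 13.9 FPKM with anti-S100a9 Ab, came closest with a log2 difference of 0.50 (limma, adjusted p = 0.076). In anti-S100a9 Ab vs IgG Ab Sec14l2 fell by 0.89 (limma, adjusted p = 0.037), and Tbc1d10a differed by -0.48 (limma, adjusted p = 0.061). Sf3a1, a splicing factor gene in the same stretch, was at means of 15.8, 17.4 and 15.6 FPKM in the 3 groups and did not pass.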
